A study of Mus musculus with 6 samples.

Results

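The genes described here are 48 chaperones, folding enzymes and stress regulators of the endoplasmic reticulum (ER), the cytosol and the mitochondrion. They were chosen by gene symbol from a fixed list of names, and all 48 were found among the 34745 genes of the count table. The list holds 23 genes of the ER and its unfolded protein response, 14 cytosolic heat shock genes, the 8 subunits of the cytosolic chaperonin TRiC and 3 mitochondrial chaperones. All 48 passed the filter on low counts, so every member was tested. The cells were macrophages of wild-type (WT) mice, grown out of bone marrow with the growth factor M-CSF at 20 ng/ml. All 6 libraries came from cells given R848, a small molecule that activates the endosomal Toll-like receptor TLR7, at 100 ng/ml for 6 h. Before R848, 3 samples were pretreated with DMSO and 3 with an inhibitor of KAT8, a lysine acetyltransferase. The compound, its dose and the length of pretreatment are not in the labels used here. Cells without R848 were not analysed here, so each difference below is one between stimulated cultures.

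Chaperones bind proteins that are not yet folded and keep them from clumping. In the ER, unfolded proteins activate the sensors IRE1, ATF6 and PERK; IRE1 splices the Xbp1 mRNA, and the factors XBP1 and ATF6 then raise the genes for ER chaperones and for ER-associated degradation, a program called the unfolded protein response. In the cytosol the corresponding factor is HSF1, which raises the genes for the HSP70 and HSP90 machines. TRiC is a ring-shaped chaperonin that folds actin and tubulin, and HSP60 with its lid HSP10 does a similar task in mitochondria. Activated macrophages secrete much protein and so load the ER. A gene count does not tell spliced from unspliced Xbp1 mRNA, so IRE1 activity was not measured.

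Library totals ranged from 18441352 to 25089320 counts. Levels are CPM, the count over the TMM-scaled library size. The 3 counts that an unseen gene may hide correspond to 0.12 to 0.163 CPM of the library totals before TMM scaling (counting error only). Fold changes are inhibitor over DMSO from edgeR's quasi-likelihood test, with p-values adjusted by Benjamini-Hochberg over 13815 tested genes; a gene is called where the adjusted p is under 0.05. No label ties replicates to different mice or dishes, and the spread that the p-values measure may thus be technical. All 8 macrophage markers examined were detected, led by Lyz2 at 8596 ± 632 CPM with DMSO and 4190 ± 37.1 CPM with the inhibitor, and 6 of the 8 were lower. The cultures also held stromal transcripts. The summed level of 9 stromal markers was 4495 to 5297 CPM with DMSO and 2019 to 2152 CPM with the inhibitor, and 7 of the 9 were lower. The part of the stromal cells in the results below was not tested, and in bulk RNA fewer cells of a type and less RNA per cell cannot be told apart. Of 6 neutrophil and precursor markers, Ly6g, Elane, Ngp and Retnlg were at 0 in all 6 libraries and Mpo had 0 to 4 counts, while Camp, at 21, 25 and 23 counts in DMSO libraries against 10, 2 and 1 in inhibitor libraries, was lower (log2 fold change −2.61, adjusted p = 0.00432); the part of such cells was not tested.

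The chaperone genes shifted by small amounts and in both directions. Of the 48, 7 were higher with the inhibitor, 19 were lower and 22 did not pass, so 54.2% were called against 51.5% of all tested genes. The share of higher calls was 7 of 48 against 24.9% of all genes, and that of lower calls 19 of 48 against 26.5%. DMSO and inhibitor libraries were fully separated for 32 of 48 members, against 60.6% of all genes. The median log2 fold change was −0.08 for the members and 0.01 for all genes. The sizes were smaller than is usual in this comparison: the median absolute log2 fold change was 0.17 for members and 0.30 for all genes, and 46 of 48 members (95.8%) had a fold change under 1.5 in either direction against 75.1% of all genes. Genes were not matched for level here: DMSO means were 9.28 to 1775 CPM for members and 0 to 19960 CPM for all tested genes. Fold changes of low genes also hold more counting error. The only member past 2-fold was Hspb1. With library totals in place of TMM scaling the median of all genes rose from 0.01 to 0.12, and 13 members were higher and 14 lower. Of the 26 calls, 6 of 7 higher and 14 of 19 lower held in each of 15 alternatives. Of the 22 members that did not pass, only 1 (Dnajb1) kept both its sign and its lack of a call in all 15.

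**Figure D1:**
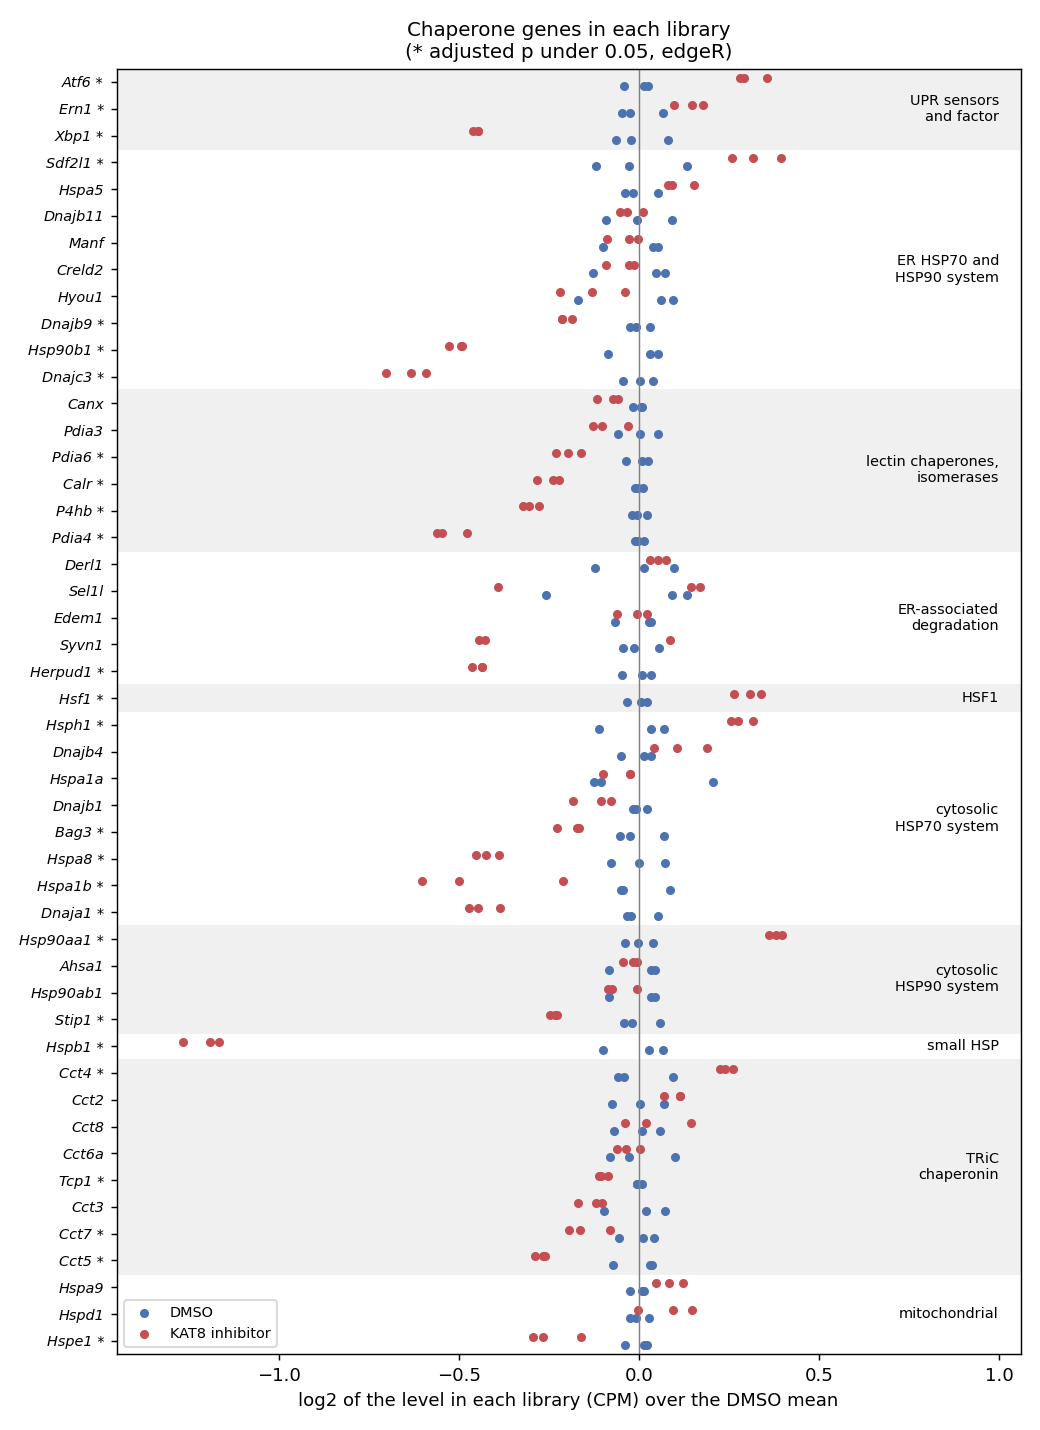
Each row is 1 chaperone gene, ordered by change within its role, and the x axis is the log2 of its TMM-scaled CPM in each library over the mean of the 3 DMSO libraries. Blue points are DMSO and red points KAT8 inhibitor libraries; an asterisk marks an adjusted p under 0.05. Hspb1 stands farthest to the left, near −1.21, while most genes lie within 0.5 of the DMSO mean.

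**Figure D2:**
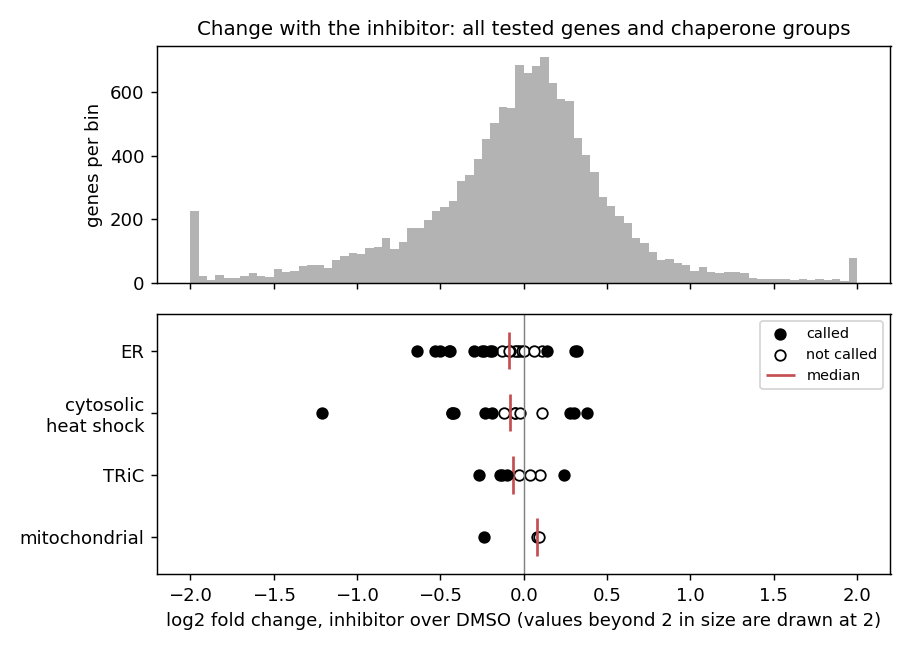
The upper panel counts tested genes by log2 fold change, inhibitor over DMSO, and the lower panel places the 48 chaperone genes on the same axis by group, with filled points for called genes and a red bar at the group median. The group medians lie at −0.09 for ER genes, −0.09 for cytosolic heat shock genes, −0.07 for TRiC and 0.08 for mitochondrial chaperones.

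The regulators of the unfolded protein response moved in opposite directions. Xbp1 (ENSMUSG00000020484, chromosome 11, 5520659 to 5525893, plus strand, mm10) encodes the factor that IRE1 activates. Its level was 133, 147 and 137 CPM in the DMSO libraries and 102, 102 and 101 CPM in the inhibitor libraries. All 3 inhibitor values lay below all DMSO values, and the gene fell by 0.45 on the log2 scale (SE 0.047, adjusted p = 0.000118). Ern1, the gene for IRE1 itself, was at 89.2, 83.7 and 82.3 CPM with DMSO and 94.3, 96.2 and 91.1 CPM with the inhibitor (0.14, adjusted p = 0.0371). The groups did not overlap, but the Ern1 call was lost with DESeq2 (adjusted p = 0.0883), with the replicate block (adjusted p = 0.0502) and on leaving out any library except DMSO replicate 1 (adjusted p = 0.0501 to 0.129). Atf6, the membrane-bound sensor that is cut in the Golgi to free a transcription factor, had means of 107 ± 2.75 and 133 ± 3.82 CPM (± SD, n = 3 libraries here and below) and rose (0.31, adjusted p = 0.000522).

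Of 19 other regulators of the response fixed as a list, 5 were higher, 5 lower and 9 did not pass. Thus 52.6% were called, against 51.5% of all tested genes. Atf4, the factor translated when PERK or related kinases are active, rose from 255 ± 8.01 to 528 ± 8.82 CPM (log2 fold change 1.05, adjusted p = 7.7e-07). Wfs1, which encodes the ER membrane protein wolframin, rose from 93.4 ± 6.89 to 177 ± 9.5 CPM. The sensor gene Eif2ak3, for PERK, had a log2 fold change of −0.16 (adjusted p = 0.0664), and Ddit3, for the factor CHOP, one of 0.11 (adjusted p = 0.387). Mbtps1, the protease that makes the first of the cuts in ATF6, fell by 0.64 on the log2 scale (adjusted p = 2.06e-05). These last 3 genes were named after their values were seen.

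A short promoter element links several of the ER genes. The ER stress response element (ERSE) holds CCAAT, which binds NF-Y, and CCACG, which binds ATF6 or XBP1, with 9 bases of any kind between them. RefSeq promoters (GRCm38.p6, 250 bases before to 50 after the start) were matched by symbol for 38 of the 48 genes. Both strands were searched. ERSE was found in 8 of the 19 ER genes with a promoter and in none of the other 19 members, against 37 of 27025 genes (0.137%) in all. The ER genes were chosen by name as genes of the ER and its unfolded protein response. This contrast is thus no independent finding. The sites are shown to let the conserved ends be compared among genes whose mRNAs changed by different amounts. Capitals mark the element, with 15 flanking bases on each side, read 5′ to 3′ on the gene's strand; in Creld2, Calr and the second Hsp90b1 site it lies in reverse orientation.
Hspa5 (chr2:34772010-34772058, plus strand): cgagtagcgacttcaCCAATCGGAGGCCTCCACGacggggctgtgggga
Dnajc3 (chr14:118937812-118937860, plus strand): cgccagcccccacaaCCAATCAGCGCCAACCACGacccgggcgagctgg
Hsp90b1, first (chr10:86705623-86705671, minus strand): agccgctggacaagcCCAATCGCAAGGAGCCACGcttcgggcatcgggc
Hsp90b1, second (chr10:86705518-86705566, minus strand): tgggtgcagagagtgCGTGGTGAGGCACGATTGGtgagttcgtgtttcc
Calr (chr8:84847060-84847108, minus strand): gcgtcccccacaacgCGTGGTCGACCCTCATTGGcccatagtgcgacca
Canx (chr11:50325785-50325833, minus strand): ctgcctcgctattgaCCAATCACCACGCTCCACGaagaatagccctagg
Pdia6 (chr12:17266476-17266524, plus strand): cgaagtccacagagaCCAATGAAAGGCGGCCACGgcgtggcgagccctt
Creld2 (chr15:88819505-88819553, plus strand): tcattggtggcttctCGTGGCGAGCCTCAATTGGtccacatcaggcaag
Syvn1 (chr19:6046517-6046565, plus strand): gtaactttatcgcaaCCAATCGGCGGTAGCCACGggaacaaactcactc

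Genes with this element did not share 1 response. Their log2 fold changes ran from −0.64 (Dnajc3) and −0.50 (Hsp90b1) through −0.25 (Calr), −0.24 (Syvn1), −0.19 (Pdia6), −0.08 (Canx) and −0.05 (Creld2) to 0.11 (Hspa5). Of the 8, 4 were lower, 0 higher by edgeR or DESeq2 and 4 did not pass, with a median of −0.22. At an unadjusted edgeR p under 0.05, 1 (Hspa5) was higher. By edgeR 50% of the 8 were called, against 51.5% of all tested genes. Of the 11 other ER genes with a promoter, 5 were lower and 2 higher (63.6% called), with a median of −0.09. Outside the members, 9 further genes with the element were tested, of which 2 were higher and 3 lower (55.6% called). A second form, with ATTGG and CCACG separated by 1 base, was searched for after results were known, and was found in Herpud1 and Dnajb11 among members and in 0.0444% of all genes. The XBP1 site TGACGTGG was found in none of the 38 promoters and in 0.714% of all genes. A match describes letters only.

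Among the HSP70 and HSP90 machines of the ER, the HSP90 gene fell and the HSP70 gene did not pass. Hspa5, the gene for BiP, the main HSP70 of the ER and a standard readout of the unfolded protein response, was at 631, 672 and 640 CPM with DMSO and 685, 720 and 690 CPM with the inhibitor. The inhibitor values lay just above the DMSO values, and the difference did not pass (log2 fold change 0.11, 95% interval 0.01 to 0.21, adjusted p = 0.0658). Leaving out DMSO replicate 2 made it pass (adjusted p = 0.0422), as did scaling by library totals (adjusted p = 0.00165) and offsets for GC content and length (adjusted p = 0.039). Hsp90b1 (ENSMUSG00000020048, chromosome 10, 86690209 to 86705509, minus strand) encodes GRP94, the HSP90 of the ER that folds Toll-like receptors and integrins. Its level was 828, 752 and 815 CPM with DMSO and 567, 568 and 554 CPM with the inhibitor. The groups were far apart, and the gene fell 1.42-fold (log2 fold change −0.50, SE 0.047, adjusted p = 5.87e-05). Its exons overlap 415 bases of the pseudogene 1810014B01Rik on the opposite strand.

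Dnajc3 (ENSMUSG00000022136, chromosome 14, 118937976 to 118981697, plus strand) encodes P58IPK, a co-chaperone of BiP that also restrains PERK. It was at 160, 164 and 155 CPM with DMSO and 106, 103 and 98.1 CPM with the inhibitor. This was the largest change among the ER genes, a 1.56-fold fall (log2 fold change −0.64, SE 0.046, adjusted p = 1.46e-05). Sdf2l1, which forms a complex with an ER J-protein, went the other way, from 46.8, 55.8 and 49.9 CPM to 60.8, 66.8 and 63.3 CPM (0.32, adjusted p = 0.0065). Dnajb9, the J-protein ERdj4, fell from 43.2 ± 0.843 to 37.5 ± 0.367 CPM (adjusted p = 0.0106), a call lost with library totals (adjusted p = 0.155). Neither Dnajb11 (ERdj3, −0.03), Manf (−0.04), Creld2 (−0.05) nor Hyou1 (−0.13) passed. Their 95% intervals ran from −0.15 to 0.10, −0.16 to 0.08, −0.20 to 0.11 and −0.31 to 0.05. Hyou1, the nucleotide exchange factor of BiP, was at 215, 210 and 179 CPM with DMSO and 173, 184 and 196 CPM with the inhibitor, so 1 DMSO library fell within the inhibitor range. Without that library, DMSO replicate 3, it passed (−0.21, adjusted p = 0.0312).

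The lectin chaperones and protein disulfide isomerases, which fold glycoproteins and form disulfide bonds, leaned lower. Of 6 genes 4 were lower, 2 did not pass and 0 were higher, by edgeR, by DESeq2 or at an unadjusted p under 0.05. By edgeR 66.7% of the role was called, against 51.5% of all tested genes. Calreticulin (Calr), the soluble lectin, had the highest level per length of the role at 449 ± 3.06 CPM per kilobase of exon with DMSO. Its CPM values were 1292, 1285 and 1303 with DMSO against 1110, 1063 and 1096 with the inhibitor, with no overlap (log2 fold change −0.25, adjusted p = 0.000945). Calnexin (Canx), its membrane-bound relative, was at 590 ± 5.17 and 557 ± 12 CPM (−0.08, 95% interval −0.17 to 0.00, adjusted p = 0.0984). Pdia4, the isomerase ERp72, changed most. It was at 178, 180 and 177 CPM with DMSO and 128, 122 and 121 CPM with the inhibitor (−0.53, SE 0.041, adjusted p = 2.21e-05; ENSMUSG00000025823, chromosome 6, 47796141 to 47813430, minus strand). P4hb, the isomerase PDI, fell from 881 ± 13.1 to 715 ± 11.5 CPM (−0.30), and Pdia6 fell from 308 ± 6.45 to 269 ± 6.49 CPM (−0.19), although the Pdia6 call was lost with library totals (adjusted p = 0.127). Pdia3, the partner of both lectins, did not pass (−0.09, 95% interval −0.19 to 0.02).

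Genes of ER-associated degradation, which takes misfolded proteins back to the cytosol, mostly did not pass, with 20% called against 51.5% of all tested genes. The exception of the 5 was Herpud1, which organises the degradation complex, at 54.2, 57.3 and 56.3 CPM with DMSO and 40.6, 41.4 and 41.4 CPM with the inhibitor (log2 fold change −0.44, SE 0.05, adjusted p = 0.000156). Derl1, a channel subunit and the most abundant of the 5 per length, was at 169, 197 and 186 CPM against 191, 188 and 194 CPM, with overlap (0.06, adjusted p = 0.454). With library totals Derl1 passed as higher (0.17, adjusted p = 0.0247). Edem1, a mannosidase-like protein that marks clients, had a log2 fold change of −0.01. The remaining 2 differed more between libraries of 1 group than between groups. Sel1l, the adaptor of the ligase complex, was at 274, 215 and 282 CPM with DMSO and 284, 289 and 196 CPM with the inhibitor. Syvn1, the ligase HRD1, was at 61.2, 57.1 and 58.4 CPM with DMSO and 43.3, 62.6 and 43.8 CPM with the inhibitor (adjusted p = 0.172). In Syvn1 a single inhibitor library lay above all DMSO values, and without it, inhibitor replicate 2, the gene passed (−0.43, adjusted p = 0.00134).

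Other ER genes were counted from lists fixed by name. Of 32 further genes for folding and translocation 19 were lower, 5 were higher and 8 did not pass, with a median log2 fold change of −0.33. Thus 75% of these genes were called, against 51.5% of all tested genes. Fkbp2, a prolyl isomerase, fell from 47.8 ± 1.9 to 23.7 ± 0.805 CPM, and Kdelr3, a receptor that returns escaped chaperones from the Golgi, fell from 20.7 ± 0.49 to 10.3 ± 0.0114 CPM. The translocon subunits Sec61a1, Sec61b and Sec61g fell by 0.40, 0.56 and 0.34 on the log2 scale. Higher genes were Sdf2, Prkcsh, Kdelr1 and the oxidase genes Ero1l and Ero1lb, with log2 fold changes of 0.20 to 0.68. Of 22 further degradation genes 5 were higher and 5 lower, with 45.5% called against 51.5% of all tested genes. The smallest p-values were those of Sel1l3 (log2 fold change 1.15) and Herpud2 (0.70), while Derl3, a low gene at 1.27 ± 0.279 and 0.48 ± 0.0179 CPM, had the largest size of change and was lower (−1.41, adjusted p = 0.00305). Apart from Fkbp2, Kdelr3, Sel1l3 and Herpud2, the genes of this paragraph were named after their values were seen. Stromal markers, 7 of 9 lower, moved in the same libraries as these secretory pathway genes; the part of stromal cells was not tested.

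In the cytosol, the gene for the heat shock factor rose, while those of the HSP70 system moved in both directions. Hsf1 (ENSMUSG00000022556, chromosome 15, 76477422 to 76501913, plus strand) was at 33.1, 34.4 and 34 CPM in DMSO libraries against 40.6, 41.9 and 42.8 CPM in inhibitor libraries, without overlap (log2 fold change 0.30, SE 0.054, adjusted p = 0.002). Of the 8 genes of the HSP70 system 1 was higher, 4 were lower and 3 did not pass. Thus 62.5% were called, against 51.5% of all tested genes. Hspa8, the constitutive HSP70 and the most abundant of the role at 367 ± 19.3 CPM per kilobase with DMSO, was at 1663, 1582 and 1497 CPM against 1207, 1178 and 1156 CPM. Every inhibitor value was below every DMSO value (−0.42, SE 0.049, adjusted p = 0.000203; ENSMUSG00000015656, chromosome 9, 40800984 to 40810087, plus strand). Of its 50-base words 51.4% occur in other annotated genes, so its count depends on how multiply mapped reads were handled. Dnaja1, a J-protein that delivers clients to HSP70, fell in parallel, from 95.3, 90.6 and 89.8 CPM to 67.5, 70.3 and 66.3 CPM (−0.43, adjusted p = 0.000128). Its exons share 608 bases with Smu1 on the opposite strand. Hsph1, the exchange factor HSP110, rose from 83.4 ± 5.39 to 102 ± 2.48 CPM (0.28, adjusted p = 0.00316).

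The stress-inducible HSP70 genes were low throughout. Hspa1b was at 29, 26.4 and 26.5 CPM with DMSO and 19.3, 18 and 23.6 CPM with the inhibitor, with no overlap (log2 fold change −0.43, SE 0.1, adjusted p = 0.00975). Hspa1a, its neighbour on chromosome 17, was at 8.51, 10.7 and 8.64 CPM and 9.13, 8.67 and 9.13 CPM, with overlap (−0.05, adjusted p = 0.733). The pair is nearly identical. Of the 50-base words of the Hspa1a transcript, 58.8% occur in Hspa1b, so how the reads were divided between them is uncertain. Their sum was 37.5, 37.1 and 35.1 CPM with DMSO and 28.5, 26.7 and 32.7 CPM with the inhibitor, and it fell (−0.32, adjusted p = 0.0123). Dnajb1, the main inducible J-protein, did not pass (−0.12, 95% interval −0.24 to 0.00), nor did Dnajb4 (0.11, −0.03 to 0.26). With library totals Dnajb4 passed as higher (0.22, adjusted p = 0.021). Bag3, a cofactor of chaperone-assisted autophagy, fell from 70.3 ± 3.16 to 61.7 ± 1.44 CPM (−0.19, adjusted p = 0.0145). The Bag3 call was lost without inhibitor replicate 3 (adjusted p = 0.0575), with library totals (0.195 as adjusted p) and with GC and length offsets (0.0672 as adjusted p).

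Of the cytosolic HSP90 genes, the inducible form rose and the constitutive form did not pass. Hsp90aa1, the inducible form, was at 442, 455 and 431 CPM with DMSO and 569, 577 and 583 CPM with the inhibitor, and rose 1.3-fold with no overlap (log2 fold change 0.38, SE 0.039, adjusted p = 9.99e-05; ENSMUSG00000021270, chromosome 12, 110690605 to 110702728, minus strand). Hsp90ab1, the constitutive form and the most abundant member of all per length at 592 ± 28.6 CPM per kilobase with DMSO, was at 1677, 1832 and 1816 CPM against 1770, 1686 and 1674 CPM. Its groups overlapped (−0.05, 95% interval −0.17 to 0.06, adjusted p = 0.394). Hsp90aa1 shares 51.5% of its 50-base words with the transcribed pseudogene Gm12346, which was listed at 2342, 2760 and 3218 counts with DMSO and 4447, 4278 and 4304 counts with the inhibitor. With these counts added, Hsp90aa1 was still higher (0.39, adjusted p = 5.54e-05). Of the co-chaperones, Stip1, which passes clients from HSP70 to HSP90, fell from 279 ± 9.74 to 237 ± 1.32 CPM (−0.23, adjusted p = 0.00171), and Ahsa1, which speeds the HSP90 ATPase, did not pass (−0.02).

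Of 45 further co-chaperones of the cytosol 14 were higher, 14 lower and 17 did not pass, with a median log2 fold change of −0.02. Thus 62.2% were called, against 51.5% of all tested genes. Fkbp5, an HSP90-bound prolyl isomerase induced by glucocorticoids, fell from 53.9 ± 3.61 to 27.4 ± 0.826 CPM, and Cdc37, which brings kinases to HSP90, fell from 269 ± 12.6 to 200 ± 3.9 CPM.

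The largest change of all 48 genes was that of Hspb1, the small heat shock protein HSP25 (HSP27 in human), which binds denatured proteins and actin filaments. Hspb1 (ENSMUSG00000004951, chromosome 5, 135887919 to 135889563, plus strand) was at 73.6, 82.5 and 80.3 CPM with DMSO and 34.5, 35.1 and 32.8 CPM with the inhibitor. It fell 2.31-fold (log2 fold change −1.21, SE 0.06, adjusted p = 2.26e-06), and it was called in each of the 15 alternatives, with values from −1.27 to −1.03. The processed pseudogene Hsp25-ps1 shares 51.6% of the 50-base words of Hspb1 and was listed at 347, 568 and 521 counts with DMSO and 204, 203 and 169 counts with the inhibitor. With these counts added, the values were 92.8, 107 and 103 CPM against 42.3, 43.2 and 39.8 CPM (−1.27). Stromal and smooth muscle cells express Hspb1 strongly. Of the 9 stromal markers 7 were lower, while Pdgfra (log2 fold change 0.08) and Lum (−0.36, adjusted p = 0.0608) did not pass. The smooth muscle actin gene Acta2 changed most of these markers, from 462 ± 17.8 to 50 ± 7.26 CPM in the same libraries. The part of stromal cells in the Hspb1 difference was not tested. The small heat shock genes Hspb8 and Cryab also fell, by 0.54 and 0.31 on the log2 scale (adjusted p = 0.000559 and adjusted p = 0.00169), while Hspb6 (0.28, adjusted p = 0.217) and Hspb11 (0.18, adjusted p = 0.352) did not pass. These 4 genes were named after their values were seen.

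The 8 subunits of TRiC, which assemble in equal numbers into each ring, did not shift as a block. Cct4 was higher, Cct5, Cct7 and Tcp1 were lower, and 4 did not pass. Thus 50% were called, against 51.5% of all tested genes. Cct4 was at 161, 179 and 163 CPM with DMSO and 198, 196 and 201 CPM with the inhibitor (log2 fold change 0.24, adjusted p = 0.00404). Cct5 was at 253, 272 and 273 CPM with DMSO and 222, 218 and 221 CPM with the inhibitor (−0.27, adjusted p = 0.0011). Neither gene's groups overlapped, and both calls held in each of the 15 alternatives. The falls of Cct7 (−0.14, adjusted p = 0.0336) and Tcp1 (−0.10, adjusted p = 0.0446) were smaller. Both were lost on leaving out DMSO replicate 2 or 3 or inhibitor replicate 2 or 3, and Tcp1 also without inhibitor replicate 1. These fits left 1 or 2 subunits lower, and without DMSO replicate 1 there were 4. Cct2, the most abundant subunit per length, was at 322, 356 and 340 CPM and 367, 356 and 367 CPM, with overlap (0.10, 95% interval −0.01 to 0.21). It passed as higher with library totals (0.21, adjusted p = 0.00327) and with GC and length offsets (0.14, adjusted p = 0.0252). Cct3 (−0.13), Cct6a (−0.03) and Cct8 (0.04) did not pass; without DMSO replicate 1 Cct3 did (−0.18, adjusted p = 0.00791).

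**Figure D3:**
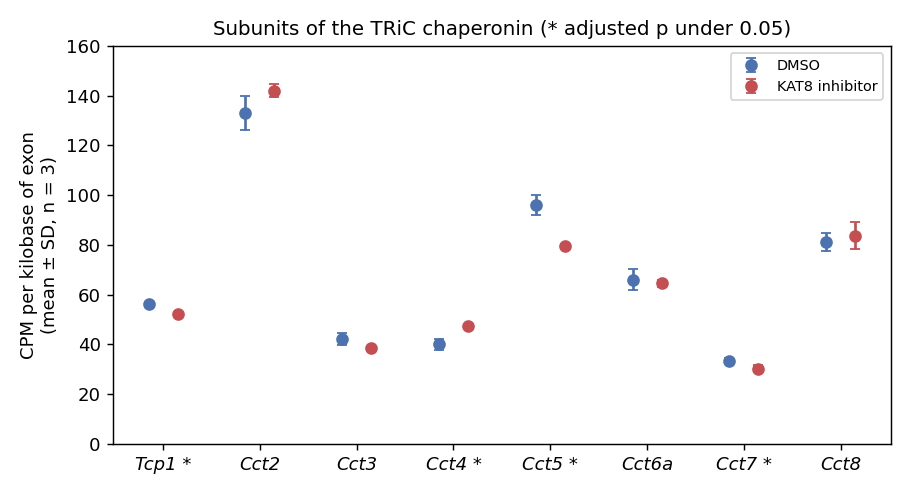
Level of each TRiC subunit mRNA in CPM per kilobase of exon, as mean ± SD over 3 libraries, for DMSO (blue) and KAT8 inhibitor (red); an asterisk marks an adjusted p under 0.05. Cct2 is the most abundant at 133 and 142, Cct7 the least at 33.4 and 30.2, and in both groups the other 6 lie between them.

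Per length of annotated exon, TRiC mRNAs ranged from 33.4 ± 1.13 (Cct7) to 133 ± 6.76 (Cct2) CPM per kilobase with DMSO. In descending order they were Cct2, Cct5, Cct8, Cct6a, Tcp1, Cct3, Cct4 and Cct7. Cct3 (42.0 ± 2.46) and Cct4 (39.9 ± 2.32) lay within their spread of each other with DMSO, and with the inhibitor Cct4 (47.2 ± 0.672) was above Cct3 (38.4 ± 0.838). Such levels divide by all annotated exons, so a gene with long rarely used exons appears lower. Exons of Tcp1, Cct6a, Cct7 and Cct8 overlap genes on the opposite strand. Prefoldin hands actin and tubulin to TRiC. Of 14 tested prefoldin and chaperonin cofactor genes 1 (Tbce) was higher and 4 were lower. Thus 35.7% were called, against 51.5% of all tested genes. Among the lower ones were the prefoldin subunits Pfdn5, from 81.3 ± 8.78 to 49.8 ± 2.51 CPM, and Pfdn2, from 52.5 ± 4.65 to 37.6 ± 0.532 CPM.

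The mitochondrial chaperones were near their DMSO levels except for Hspe1. Hspd1, which encodes HSP60, was at 355, 351 and 364 CPM with DMSO and 395, 381 and 356 CPM with the inhibitor, with overlap (log2 fold change 0.08, 95% interval −0.03 to 0.19, adjusted p = 0.195). Hspa9, the mitochondrial HSP70 mortalin, was at 563, 578 and 576 CPM and 607, 623 and 592 CPM (0.09, adjusted p = 0.0985). The inhibitor values of Hspa9 lay above those of DMSO without passing, and with library totals both genes did pass (Hspd1 adjusted p = 0.00853, Hspa9 adjusted p = 0.00196). Hspe1, the lid HSP10, was at 86.2, 89.9 and 89.5 CPM with DMSO and 79.2, 73.6 and 72.2 CPM with the inhibitor, and fell (−0.24, SE 0.05, adjusted p = 0.00436). Hspd1 shares 42.8% of its 50-base words with the pseudogene Hspd1-ps3, which held 1867 to 2807 counts a library. With these added, Hspd1 still did not pass (0.07, adjusted p = 0.177).

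Hspd1 and Hspe1 lie head to head on chromosome 1 and are known to be driven by a shared promoter. Their exons share 112 bases on opposite strands, so without strand information reads there cannot be assigned. The heat shock element, searched as GAA, TTC and GAA in either orientation with 2 bases between neighbours, was found 2 times, overlapping, before the Hspe1 start and before 1 of the 2 Hspd1 starts in RefSeq. The other Hspd1 start lies on the far side of the site, and its promoter window holds no match. The site is shown because Hspe1 fell and Hspd1 did not pass; capitals mark the matches, on the Hspe1 strand.
Hspe1 and Hspd1 (chr1:55088053-55088082, plus strand): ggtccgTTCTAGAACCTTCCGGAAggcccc
The element was present in 0.662% of all gene promoters. Among the 10 cytosolic members with a promoter it was found in Hsph1, where it lies after the start, and not in the windows of Hspa1a, Hspa1b, Dnajb1 or Hspb1. Only exact matches within the windows were counted, so imperfect elements or elements farther away would be missed. In a list of 19 further genes for mitochondrial chaperones and proteases 47.4% were called, against 51.5% of all tested genes. In that list 6 were higher and 3 lower. Among the lower ones was Hspb7 (−1.23), a small heat shock gene that the list holds although it is no mitochondrial chaperone. Atf5, a factor of the mitochondrial unfolded protein response, rose from 93.4 ± 0.647 to 151 ± 2.64 CPM, and Afg3l2, an inner membrane protease, from 105 ± 4.55 to 180.0 ± 4.41 CPM. Clpp, the matrix protease, rose by 0.92 on the log2 scale and was named after its value was seen.

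Ratios within a library do not depend on library scaling, and they set the change of related genes side by side. An exact permutation test, two-sided, was run for each of 9 ratios; with 3 libraries against 3 its smallest possible p is 0.1, so none could pass. For 8 of the 9 the groups did not overlap (exact p = 0.1, Benjamini-Hochberg adjusted 0.113). Taken singly, 60.6% of all tested genes did not overlap either, and the share among other gene pairs was not computed. Of the 8, the pair Hspa5 over Hsp90b1 was chosen after its values were seen. Hsp90aa1 stood at 0.263, 0.248 and 0.237 of Hsp90ab1 in CPM with DMSO and at 0.321, 0.342 and 0.348 with the inhibitor, a log2 change of 0.44. Hspa5 over Hspa8, the ER against the cytosolic HSP70, was 0.38, 0.425 and 0.428 in DMSO libraries and 0.567, 0.611 and 0.597 in inhibitor libraries (0.53). The mitochondrial Hspa9 over Hspa8 shifted alike (0.51), both ratios sharing Hspa8.

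For the HSP90s the compartments went the other way: Hsp90b1 over Hsp90ab1 was 0.494, 0.41 and 0.449 in DMSO libraries and 0.32, 0.337 and 0.331 in inhibitor libraries (log2 change −0.45). Within the ER, Hspa5 over Hsp90b1 was 0.762, 0.894 and 0.785 with DMSO and 1.21 to 1.27 in the inhibitor libraries (0.61), a pair chosen after its values were seen. Calr over Canx changed by −0.16, Hspd1 over Hspe1 by 0.32 and Hspd1 over Tcp1 by 0.18. The sum of Hspa1a and Hspa1b over Hspa8 was the exception, at 0.0226 to 0.0235 with DMSO and 0.0227 to 0.0283 with the inhibitor (0.09, exact p = 0.4).

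**Figure D4:**
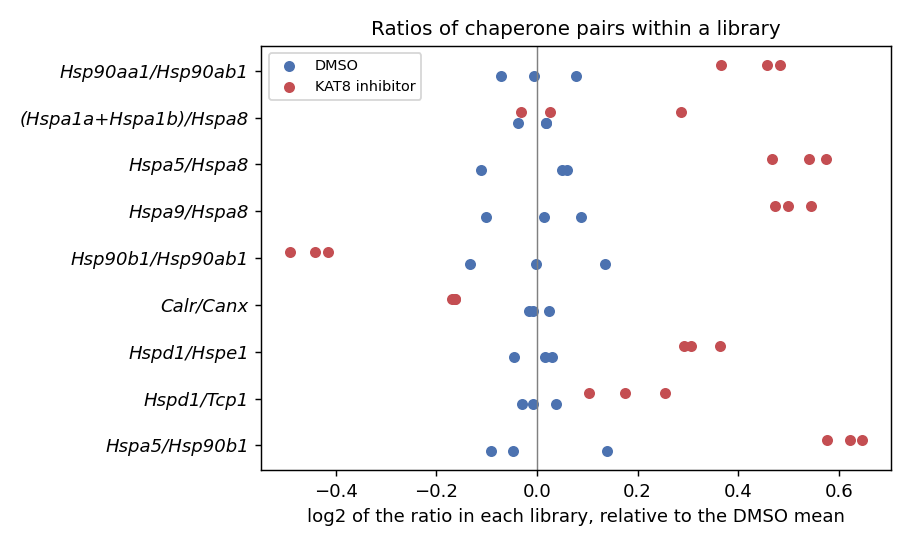
Each row is the ratio of 2 chaperone mRNAs in CPM, shown as its log2 in each library relative to the mean of the 3 DMSO libraries (blue DMSO, red KAT8 inhibitor). Red and blue points are separate in every row but that of Hspa1a plus Hspa1b over Hspa8, with Hspa5 over Hsp90b1 farthest to the right at 0.61 and Hsp90b1 over Hsp90ab1 farthest to the left at −0.45.

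Side by side, 3 of 23 ER genes were higher and 9 lower, 3 of 14 cytosolic heat shock genes were higher and 6 lower, 1 of 8 TRiC genes was higher and 3 lower, and 0 of 3 mitochondrial chaperones were higher and 1 lower by edgeR. In all, 52.2% of the ER genes, 64.3% of the cytosolic genes, 50% of the TRiC genes and 33.3% of the mitochondrial genes were called, beside 51.5% of all tested genes (24.9% higher and 26.5% lower). For the mitochondrial genes the count of higher genes was also 0 with DESeq2 and at an unadjusted p under 0.05, and it was 2 with library totals. The summed level of the ER genes was 7158 to 7231 CPM with DMSO and 6321 to 6417 CPM with the inhibitor, without overlap. That of the cytosolic genes was 4606 to 4745 CPM and 4173 to 4305 CPM, also without overlap. Such sums weigh abundant genes most and do not show a shift of every gene. Among cytosolic genes the mean of Hspa8 went from 1580 to 1181 CPM and that of Hsp90aa1 from 442 to 576 CPM. Among ER genes Hsp90b1 went from 798 to 563 CPM, Calr from 1294 to 1090 CPM and P4hb from 881 to 715 CPM. Hspa5 went from 648 to 698 CPM. TRiC (1972 to 2107 and 1955 to 2017 CPM) and the mitochondrial chaperones (1004 to 1030 and 1020 to 1081 CPM) overlapped between groups. No difference between the 4 groups of genes was tested.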

How the data were processed

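The authors deposited a single table whose values are whole read counts by Ensembl identifier for 6 libraries. The submitters' processing notes name build mm10, HISAT2, edgeR and StringTie 1.3.0. The sources used here do not say what each did, how reads were counted, or how strand and multiply mapped reads were handled, so counts of genes with near-identical copies or overlapping neighbours are uncertain. Libraries were grouped by title. Genes were tested in R 4.3.3 with edgeR 4.0.16 (quasi-likelihood test, TMM, filterByExpr with a minimum count of 10, pretreatment as the factor); DESeq2 1.42.0 was an alternative. The SE was derived from the F statistic. The pipeline was run on simulated counts in which a small set of genes changed, evenly in both directions. That run does not test the scaling in data where many genes are called, as here. Within a group, paired counts differed by a chi-square of 8.77 to 13.5 per degree of freedom, so no library was a copy. Symbols, coordinates, exon lengths and transcripts came from GENCODE M21, promoters from RefSeq.

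The members and lists were chosen with earlier results of these data known. Values in every library are given for called members with an absolute log2 fold change of at least 0.5 (at most 3 a role), the most abundant member of a role per exon length, and a fixed set of regulators; other members with values by library were picked after these were seen. From each further list the 2 called genes with the smallest p are named. Protein ends were not analysed here.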

Additional observations from a re-analysis of the deposited data

How the results depend on the processing

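Of 15 alternatives for each gene, library totals changed most. With them 13 members were higher, as were 5 ER, 2 TRiC and 2 mitochondrial genes, and 1 TRiC gene was lower, while the median of all genes moved from 0.01 to 0.12. The further lists moved too with library totals. There 8 further degradation genes were higher and 1 lower, and 11 further mitochondrial genes were higher and 1 lower. Of the prefoldin and cofactor genes 4 were higher. With GC and length offsets 2 TRiC genes and 1 mitochondrial gene were higher and 1 TRiC gene lower. TRiC had 1 lower gene without a filter on low counts, with an adjusted p under 0.01 and with the replicate block, and 1 to 4 on leaving out each library. At an adjusted p under 0.01, 2257 of all genes were higher. With the replicate block 6 members were higher and 17 lower. Deviations of libraries with equal replicate numbers had correlations of −0.0337, −0.00297 and 0.0243, and those with unequal numbers −0.0378 to 0.0409. These values cannot tell whether equal numbers share an animal, a culture or a batch. Summing near-identical copies, chosen after seeing the data, gave 7 higher and 20 lower members. Hspa1a and Hspa1b hold the same sum there, so the same measurement was counted as lower for both genes.

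Sign changes were those of Tcp1 with library totals (0.01) and of genes that had not passed. With library totals the log2 fold change was 0.08 for Dnajb11, 0.07 for Manf, 0.06 for Creld2, 0.03 for Canx, 0.02 for Pdia3, 0.10 for Edem1, 0.10 for Sel1l, 0.06 for Hspa1a, 0.06 for Hsp90ab1, 0.09 for Ahsa1 and 0.08 for Cct6a. With GC and length offsets it was 0.02 for Dnajb11, 0.06 for Creld2, 0.01 for Edem1, 0.04 for Sel1l, 0.05 for Hspa1a and 0.00 for Ahsa1. Without a filter it was 0.01 for Sel1l. On leaving out each library, values ran from −0.07 to 0.02 for Dnajb11, −0.05 to 0.01 (once 0.00) for Edem1, −0.12 to 0.16 for Sel1l, −0.01 to 0.10 for Derl1, −0.11 to 0.06 for Hspa1a, −0.07 to 0.02 for Cct6a and −0.01 to 0.08 for Cct8, and from −0.00 to 0.16 for the ratio of Hspa1a plus Hspa1b to Hspa8. The cause of these changes was not tested. With GC and length offsets the median of all genes was 0.07. Of 288 leave-one-out results of members, 10 changed sign, 15 lost their call and 4 gained one.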
